A study of Rattus norvegicus with 6 samples.

Results

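Intermediate filaments are the ropelike part of the cytoskeleton, and the 9 genes described here encode the subunits found in sensory neurons and in the cells that surround them. They are Nefl, Nefm and Nefh (the light, medium and heavy neurofilament subunits), Ina (alpha-internexin), Prph (peripherin), Vim (vimentin), Nes (nestin), Gfap (glial fibrillary acidic protein) and Synm (synemin). They were chosen by gene name, and each matched 1 of the 56748 rows of the deposited count table. All 9 passed the filter on low counts, as did 16993 genes in all.

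The counts come from primary dorsal root ganglion neurons, the sensory nerve cells whose bodies lie beside the spinal cord, which were given extracellular vesicles released by muscle. In the group EVMu (3 libraries) the muscle kept its nerve supply, and in the group EVadMu (3 libraries) the muscle had been acutely denervated. All 6 libraries thus received vesicles, and no group without vesicles was analysed here, so a lower level in EVadMu cannot be told apart from a higher level in EVMu. The strain and age of the animals, the vesicle dose and the time of exposure were not stated in the labels. Nor do the labels say that replicates were grown as separate cultures, so the p-values measure only how much the libraries of a group varied, which can be technical variation. A difference in culture or batch between the groups cannot be told apart from the kind of vesicle.

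Neurofilaments are built from the light, medium and heavy subunits, joined by alpha-internexin or, in peripheral neurons, by peripherin. They fill large axons and set their calibre. Among the light, medium and heavy subunits, the light chain is the one that the others need to form filaments. In the dorsal root ganglion the heavy subunit is used as a marker of large neurons with myelinated axons and peripherin as a marker of small neurons with unmyelinated axons. Vimentin is the filament of fibroblasts, glia and many dividing cells, nestin that of progenitors and of some glia and vessel cells, and GFAP that of reactive glia, while synemin joins other subunits and links filaments to the cell membrane.

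Library totals ran from 14853115 to 17019877 counts. The labels name rat, whereas the build in the submitters' processing notes and all gene identifiers are mouse. Whether reads of the 9 genes were lost in that step was not tested. Most markers of other cell classes and of dividing cells were lower in EVadMu. All 15 fibroblast markers were lower, as were 14 of 16 markers of Schwann and satellite glia, 10 of 11 of endothelial and mural cells, 9 of 11 tested of macrophages and leukocytes and 10 of 10 of proliferation. The summed level of the macrophage and leukocyte markers was nevertheless higher in EVadMu, at 135 to 141 CPM against 102 to 112 CPM, with Cd68 up from 12.9 ± 1.90 to 131 ± 3.23 CPM. Of 16 pan-neuronal markers 11 were lower, 4 were higher and 1 was not called. Over all tested genes, 40.8% were called lower and 39.2% higher. No marker of these lists was at 0 over a whole group. In such bulk RNA, fewer cells of a type and less RNA per cell cannot be told apart.

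The 9 genes together took 0.834% to 0.839% of a library's counts in EVMu and 0.534% to 0.540% in EVadMu. Of the 9 genes, 7 were lower in EVadMu, 1 was higher (Nes) and 1 was not called (Nefh). The call is an adjusted p under 0.05 in edgeR's quasi-likelihood test over all tested genes, which 80.0% of tested genes passed, 40.8% lower and 39.2% higher. The median log2 fold change (EVadMu against EVMu) of the 9 was -0.64, beside -0.02 for all tested genes. Levels of the 2 groups did not overlap for 8 of the 9 genes, as for 80.7% of tested genes. A call with a change of at least 2-fold was made for 2 of the 9, Gfap and Synm, both lower, and for 41.1% of tested genes, 23.5% lower and 17.6% higher. Levels below are read counts scaled to library size (CPM) with TMM factors and no correction for gene length, so they compare libraries for a gene and not one gene with another.

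**Figure D1:**
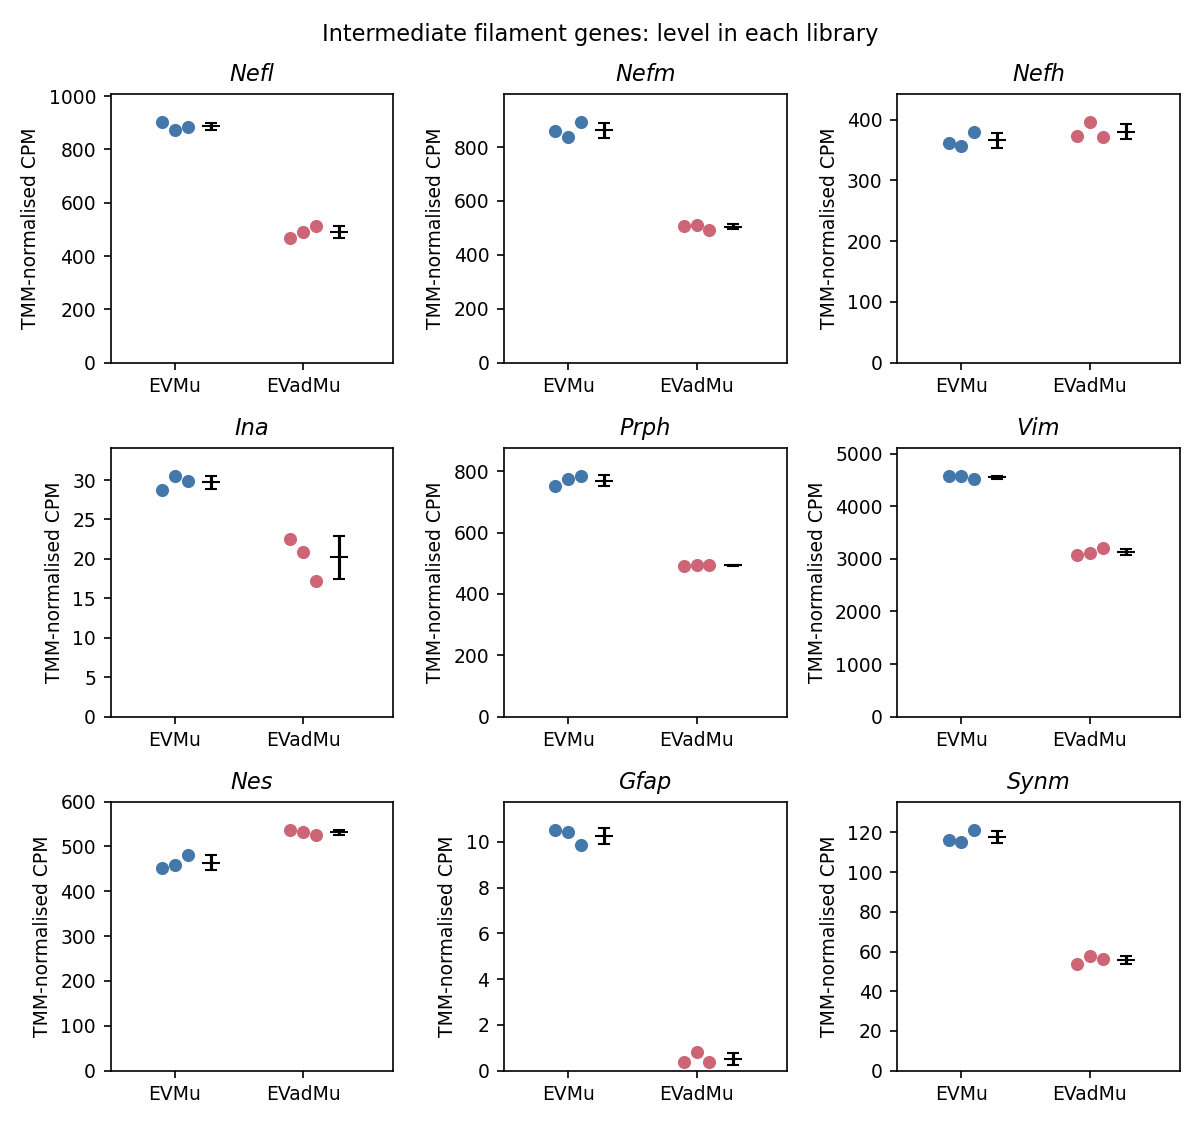
Level of each of the 9 genes (TMM-normalised CPM, axes from 0) in the 3 EVMu and 3 EVadMu libraries, with the group mean and SD beside the points. The groups lie apart for 8 genes and overlap for Nefh, and Nes is the 1 gene that lies higher in EVadMu.

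Nefl, the core subunit of the neurofilament, was at 902, 875 and 883 CPM in EVMu replicates 1 to 3 and at 469, 491 and 512 CPM in EVadMu replicates 1 to 3. Every EVadMu library was below every EVMu library. The mean went from 887 ± 13.9 to 491 ± 22.0 CPM (SD over the 3 libraries of each group). This was a fall of 44.7%, with a log2 fold change of -0.85 ± 0.031 (SE) and an edgeR adjusted p of 1.87e-23. Of all tested genes, 52.0% had a smaller change in size, so the fall of Nefl lay near the middle of the changes in this comparison.

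Nefm, the medium subunit, whose long tail projects from the filament, was at 860, 837 and 892 CPM in EVMu and at 508, 510 and 493 CPM in EVadMu. The 2 groups were again apart, with the 3 EVadMu libraries close together. The fall from 863 ± 27.4 to 504 ± 9.23 CPM was a log2 fold change of -0.78 ± 0.030 (edgeR adjusted p = 9.70e-23). In the order of genes on the rat assembly GRCr8, Nefl and Nefm are next to each other with no protein-coding gene between them. The Nefm to Nefl ratio of counts within a library ran from 0.953 to 1.01 in EVMu and from 0.962 to 1.08 in EVadMu, and these ranges overlapped (difference of 0.08 on the log2 scale, exact two-sided permutation p = 0.2). The difference was 0.04 without EVadMu replicate 1 and 0.13 without EVadMu replicate 3.

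Nefh, the heavy subunit, did not follow the other 2 subunits. It was at 361, 356 and 380 CPM in EVMu and at 374, 396 and 372 CPM in EVadMu. The highest EVMu library lay above 2 of the EVadMu libraries, so the groups overlapped. The means were 366 ± 12.5 and 381 ± 13.1 CPM, and the log2 fold change of 0.06 ± 0.033 did not pass (edgeR adjusted p = 0.121), with a 95% interval of -0.01 to 0.12. Of all tested genes, 4.03% had a smaller change in size. The call turns on the scaling and on single libraries. Nefh was called higher with RLE factors (0.08, adjusted p = 0.0368), in DESeq2 (0.08, adjusted p = 0.0485), without EVadMu replicate 1 (0.08, adjusted p = 0.0419) and without EVadMu replicate 3 (0.08, adjusted p = 0.0277). With no scaling factors, which shifts the median of all tested genes from -0.02 to -0.13, Nefh was at -0.06 and not called (edgeR adjusted p = 0.117).

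The balance of the 3 subunit genes within a library does not depend on that scaling. Nefh made up 17.0%, 17.2% and 17.6% of the triplet's counts in EVMu replicates 1 to 3 and 27.7%, 28.3% and 27.0% in EVadMu replicates 1 to 3. Nefl made up 41.0% to 42.5% in EVMu and 34.7% to 37.2% in EVadMu, and Nefm 40.5% to 41.4% and 35.8% to 37.6%. All 3 shares were apart between the groups. The shares come from counts without correction for transcript length, so they compare libraries and give no ratio of molecules. The Nefh to Nefl ratio of counts rose from between 0.401 and 0.430 to between 0.727 and 0.807, that is 1.88-fold, a difference of 0.91 on the log2 scale. The exact two-sided permutation p of 0.1 is the smallest that this test can give with 3 libraries against 3, so the permutation test cannot pass a threshold of 0.05 here. Leaving out each library in turn gave differences of 0.88 to 0.96.

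**Figure D2:**
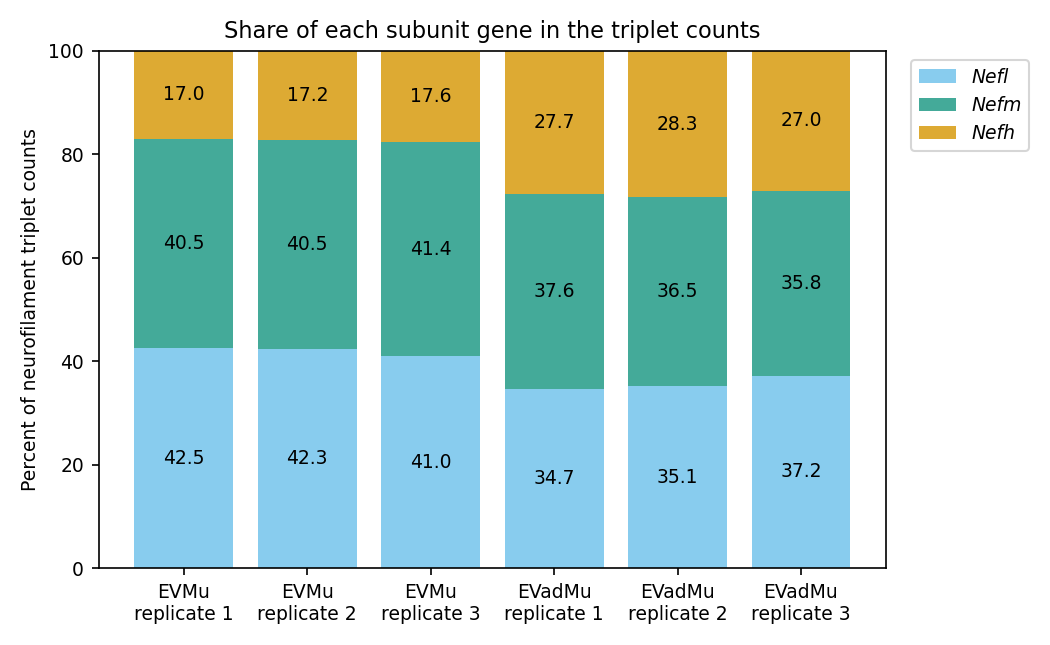
Share of Nefl, Nefm and Nefh in the summed counts of the 3 neurofilament genes (percent, no length correction) in each library. The Nefh share is 17.0% to 17.6% in EVMu and 27.0% to 28.3% in EVadMu.

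Ina encodes alpha-internexin, which can join the triplet and is best known from central neurons. It had the lowest counts of the neuronal subunits, 447 to 527 per library in EVMu and 272 to 364 in EVadMu. Its level was 28.8, 30.5 and 29.9 CPM in EVMu and 22.6, 20.9 and 17.2 CPM in EVadMu. The EVadMu libraries were all lower and more spread than the EVMu libraries. The log2 fold change was -0.55 ± 0.089 (edgeR adjusted p = 9.06e-07). The Ina to Nefl ratio overlapped between the groups (difference of 0.29 on the log2 scale, exact two-sided permutation p = 0.3). The overlap came from EVadMu replicate 3, without which the difference was 0.44 and the groups were apart (exact permutation p = 0.1), while it was 0.18 without EVadMu replicate 1.

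Prph, the peripherin gene of peripheral and above all small sensory neurons, was at 751, 775 and 783 CPM in EVMu and at 492, 494 and 495 CPM in EVadMu. The EVadMu libraries lay within 3 CPM of one another and below all EVMu libraries. Prph fell by 35.8%, a log2 fold change of -0.64 ± 0.029 (edgeR adjusted p = 1.09e-20). Relative to Nefl it was higher in EVadMu, with a Prph to Nefl ratio of counts of 0.832 to 0.887 in EVMu and 0.966 to 1.05 in EVadMu (difference of 0.22 on the log2 scale, exact two-sided permutation p = 0.1). The sequence around its transcription start is shown here for the elements that position transcription, and that of Vim is given below for comparison. It runs from 250 bases before to 50 bases after the start on the rat assembly GRCr8 (chr7:132097039-132097338, plus strand; RefSeq), and capitals mark matches, on either strand, to the TATA motif TATAAA, the CCAAT box, the GC box GGGCGG, the AP-1 motif TGANTCA and the cyclic AMP response element TGACGTCA. No matches overlap.
Prph: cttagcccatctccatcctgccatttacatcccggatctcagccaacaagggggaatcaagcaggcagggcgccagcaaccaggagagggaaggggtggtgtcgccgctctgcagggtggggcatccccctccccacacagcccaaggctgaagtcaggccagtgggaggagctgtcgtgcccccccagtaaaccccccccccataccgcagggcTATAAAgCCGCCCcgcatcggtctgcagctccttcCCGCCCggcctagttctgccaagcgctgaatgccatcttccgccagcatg
The window holds TATAAA at 35 to 30 bases before the start and 2 matches to GGGCGG on the opposite strand. TATAAA on either strand occurs in 14.2% of 33465 rat windows of the same length, and GGGCGG in 33.1%. A match is a match of letters and shows no binding. Only the motifs as written were sought, so a missing match does not show that an element is absent.

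The summed counts of the neurofilament triplet were set against those of the 16 pan-neuronal markers, whose summed level went from between 4694 and 4875 CPM in EVMu to between 3254 and 3364 CPM in EVadMu. The triplet to marker ratio was 0.440 to 0.452 in EVMu and 0.410 to 0.424 in EVadMu, a difference of -0.10 on the log2 scale. For Prph the same ratio was 0.160 to 0.165 and 0.147 to 0.151, a difference of -0.11. Both had an exact two-sided permutation p of 0.1, the smallest possible. The sign of both turned when the markers were summarised by the mean of their log2 CPM, to 0.20 for the triplet and 0.18 for Prph, so no direction relative to other neuronal genes is given. Among the markers the neuronal tubulin gene Tubb3 fell from 1217 ± 14.6 to 512 ± 6.00 CPM and the RNA-binding protein gene Elavl4 from 89.6 ± 5.25 to 14.5 ± 1.67 CPM, while the neuronal enolase gene Eno2 rose from 252 ± 9.14 to 422 ± 12.5 CPM. The median log2 fold change of the 16 was -1.04.

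Vim took the most counts of the 9 genes, 55.5% to 56.9% of their sum in every library. It was at 4570, 4570 and 4511 CPM in EVMu and at 3074, 3117 and 3202 CPM in EVadMu. The groups were apart and each was tight. Vim fell by 31.2%, a log2 fold change of -0.54 ± 0.023 (edgeR adjusted p = 1.50e-21). Beside it, the summed level of the fibroblast markers went from between 7647 and 7702 CPM to between 361 and 385 CPM, with Col1a1 at -6.44, Col3a1 at -8.53 and Postn at -5.86 on the log2 scale. Vim counts over fibroblast marker counts thus went from between 0.590 and 0.598 to between 7.98 and 8.88, 14.1-fold higher in EVadMu (exact two-sided permutation p = 0.1, the smallest possible). Summed proliferation markers went from between 1548 and 1575 CPM to between 9.43 and 12.0 CPM. The part of either cell class in the Vim result was not tested. The Vim window on GRCr8 (chr17:81577011-81577310, plus strand; RefSeq), shown for comparison with that of Prph, is marked in the same way.
Vim: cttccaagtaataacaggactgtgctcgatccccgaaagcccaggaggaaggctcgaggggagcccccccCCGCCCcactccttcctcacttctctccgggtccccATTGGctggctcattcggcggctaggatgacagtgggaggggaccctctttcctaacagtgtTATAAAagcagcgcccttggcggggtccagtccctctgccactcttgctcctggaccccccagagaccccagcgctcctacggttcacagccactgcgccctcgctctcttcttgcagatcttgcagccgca
TATAAA lies at 82 to 77 bases before the annotated start, farther than in Prph. CCAAT, present in 37.5% of windows, lies on the opposite strand at 144 to 140 bases before that start. GGGCGG occurs on the opposite strand as well. Distances in both windows count from the start annotated by RefSeq. Whether that is the start used in these cells was not tested, so the distances compare annotations.

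Nes, the nestin gene, was the 1 member of the 9 that was called higher. It was at 451, 459 and 482 CPM in EVMu and at 536, 532 and 525 CPM in EVadMu, with no overlap. The log2 fold change was 0.19 ± 0.031 (edgeR adjusted p = 6.60e-07), a rise of 14.5%, and 13.4% of tested genes had a smaller change in size. The rise was called in all 14 alternatives run, at 0.08 with no scaling factors (edgeR adjusted p = 0.0140) and at up to 0.22. TMM and RLE factors take most genes to be unchanged, whereas 80.0% of tested genes were called here. Over the scalings tried Nes ran from 0.08 to 0.22, a spread that the SE does not include. The size of the rise thus depends on the scaling. In the same libraries the summed markers of Schwann and satellite glia went from between 6743 and 7031 CPM to between 2542 and 2621 CPM, and those of endothelial and mural cells from between 776 and 805 CPM to between 147 and 150 CPM. The ratio of Nes counts to glia marker counts rose 3.04-fold, from between 0.0658 and 0.0685 to between 0.203 and 0.207 (exact two-sided permutation p = 0.1, the smallest possible). The difference was 1.60 on the log2 scale, and 2.67 with the markers' mean log2 CPM. The part of these cells in the Nes result was not tested. Its window is shown because Nes was the 1 member called higher (chr2:175736338-175736637, plus strand, GRCr8, RefSeq).
Nes: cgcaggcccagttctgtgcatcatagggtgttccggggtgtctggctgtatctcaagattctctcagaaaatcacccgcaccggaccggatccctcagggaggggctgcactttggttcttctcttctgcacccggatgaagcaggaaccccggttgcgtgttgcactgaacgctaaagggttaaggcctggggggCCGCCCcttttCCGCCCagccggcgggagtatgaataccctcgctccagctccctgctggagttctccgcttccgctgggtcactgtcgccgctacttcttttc
It holds 2 matches to GGGCGG on the opposite strand, at 54 to 49 and at 43 to 38 bases before the start, and no match to the other 4 motifs. Promoter windows were found for 6 of the 9 genes, and none for Nefl, Nefm or Nefh. That of Ina holds only GGGCGG and that of Synm only CCAAT among these motifs.

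Gfap had the largest change of the 9. It had 163, 161 and 174 counts in EVMu and 6, 13 and 6 counts in EVadMu, or 10.5, 10.4 and 9.86 CPM against 0.372, 0.818 and 0.379 CPM. All EVadMu libraries were far below the EVMu libraries, at counts where a few reads weigh on the level. The log2 fold change was -4.27 ± 0.25 (edgeR adjusted p = 2.01e-17), that is 19.4-fold lower, and 97.7% of tested genes had a smaller change in size. Relative to the summed glia markers Gfap was 7.45-fold lower in EVadMu (difference of -2.90 on the log2 scale, exact two-sided permutation p = 0.1, the smallest possible), and with the markers' mean log2 CPM the difference was -1.59. Among those markers the neuregulin receptor gene Erbb3 (-5.21) and the adhesion gene Cadm4 (-4.54) fell, while the apolipoprotein gene Apoe rose by 0.53 on the log2 scale and S100b, at 0.04, did not pass (edgeR adjusted p = 0.412). The part of the glia in the Gfap result was not tested. The Gfap window, shown as that of the gene with the largest fall, holds no exact match to the 5 motifs (chr10:88361612-88361911, minus strand, GRCr8, RefSeq).
Gfap: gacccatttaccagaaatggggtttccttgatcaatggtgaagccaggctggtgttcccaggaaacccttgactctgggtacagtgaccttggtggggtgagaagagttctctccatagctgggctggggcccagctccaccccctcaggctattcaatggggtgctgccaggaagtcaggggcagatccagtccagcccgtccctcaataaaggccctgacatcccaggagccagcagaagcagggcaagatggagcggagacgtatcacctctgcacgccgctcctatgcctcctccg

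Synm was at 116, 115 and 121 CPM in EVMu and at 53.8, 57.7 and 56.2 CPM in EVadMu. The groups were well apart. Synm fell by 52.4%, a log2 fold change of -1.07 ± 0.049 (edgeR adjusted p = 1.72e-20).

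**Figure D3:**
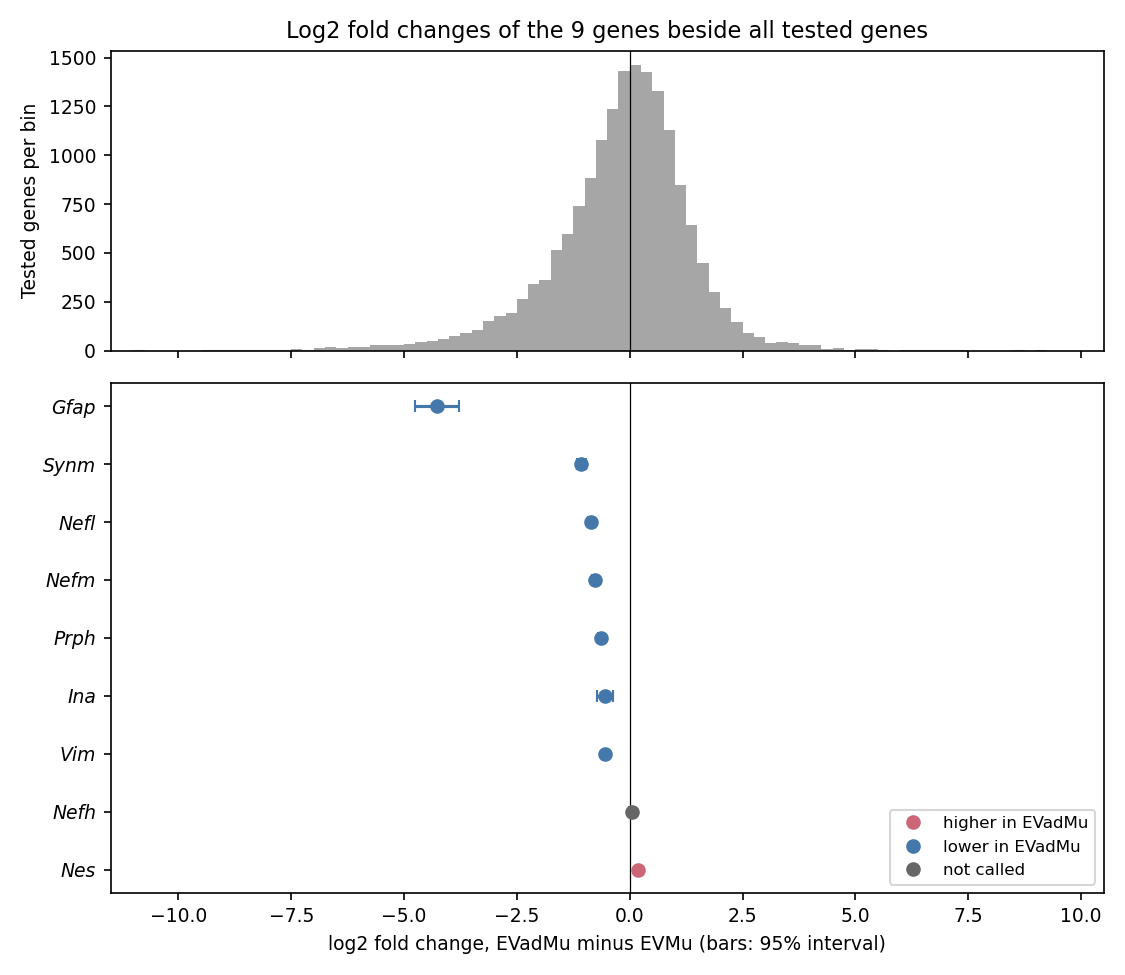
Log2 fold changes of the 9 genes (lower panel, with 95% intervals, red for higher in EVadMu, blue for lower, grey for not called) below the distribution over all 16993 tested genes (upper panel, genes per bin). Gfap lies at -4.27, Synm at -1.07, the other 5 lower genes between -0.85 and -0.54, Nefh at 0.06 and Nes at 0.19.

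**Figure D4:**
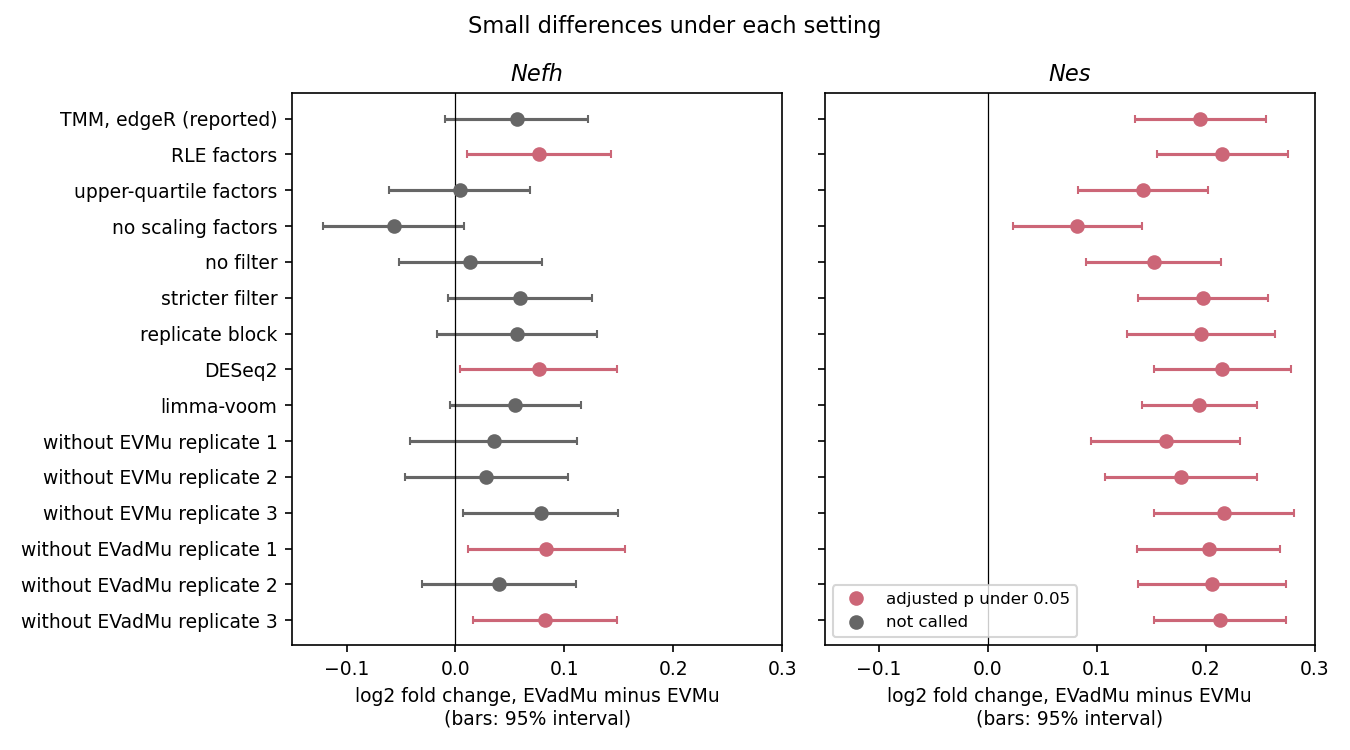
Log2 fold changes of Nefh and Nes under each scaling, filter, test and left-out library (bars are 95% intervals, red for an adjusted p under 0.05). Nes stays above 0 throughout, while Nefh lies between -0.06 and 0.08 and passes in 4 of the 14 alternatives.

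Genes of linker proteins that tie intermediate filaments to membranes, actin and junctions were mostly lower. Of 11 tested, 9 were lower, 1 higher and 1 not called, with a median log2 fold change of -1.27. The shares over all tested genes were 40.8% lower and 39.2% higher. Plec, the plectin gene, whose product links vimentin and other filaments, fell from 1836 ± 29.5 to 415 ± 15.1 CPM. Of the dystrophin complex, to which synemin binds, Dag1 fell from 1254 ± 7.36 to 199.6 ± 10.3 CPM and Dmd from 254 ± 6.57 to 25.2 ± 2.99 CPM. The envoplakin gene Evpl rose by 1.03 from a level of 1.72 ± 0.37 CPM. Fibroblasts and glia also express plectin and dystroglycan, and their summed markers were lower alongside, as given for Vim and Nes; their part was not tested.

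Of 13 genes of filament transport and axon calibre, 10 were lower, 1 was higher and 2 were not called, with a median of -0.96. Beside them, 40.8% of all tested genes were lower and 39.2% higher. Kif5a, a motor that carries neurofilaments along axons, fell from 568 ± 8.91 to 187 ± 3.39 CPM, and the ankyrin-G gene Ank3, the organiser of the axon's initial segment, from 390 ± 6.85 to 40.4 ± 2.03 CPM. The spectrin gene Sptbn1 fell by 1.55 on the log2 scale. Tbce, a tubulin folding factor whose mutation in mice causes motor axon loss, rose by 0.75. Of the related motor genes, Kif5c was lower as well (-0.97), while Kif5b (-0.03) and Kif3a (0.03) did not pass.

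Among the genes of 16 kinases, phosphatases and their partners that act on neurofilament tails, 10 were lower and 6 higher (median -0.32). All 16 were thus called, beside 80.0% of all tested genes, 40.8% lower and 39.2% higher. The Cdk5 activator gene Cdk5r1 fell from 30.0 ± 0.79 to 8.15 ± 0.96 CPM. The kinase gene Mapk10 had a log2 fold change of -0.94 and the phosphatase subunit gene Ppp2r2b one of -1.09. The phosphatase catalytic gene Ppp2ca rose from 310 ± 3.12 to 552 ± 6.67 CPM, and the kinase gene Gsk3a rose by 0.73 on the log2 scale.

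Since Nefh and Prph mark different sensory neurons, markers of those classes were read beside them. Of 15 markers of large neurons with myelinated axons 9 were lower and 6 higher (median -0.46), and their summed level went from between 697 and 702 CPM to between 356 and 363 CPM. Kcna1, Ntrk3 and Spp1 fell by 2.10, 1.93 and 1.93 on the log2 scale, and Pvalb, Esrrg and Runx3 rose by 2.21, 1.88 and 1.40. In EVMu the former were at 65.5, 91.7 and 206 CPM and the latter low, at 5.99, 2.31 and 1.04 CPM. The part of other cell classes in these markers was not tested. Of 14 tested markers of small neurons with unmyelinated axons 12 were lower, 1 was higher and 1 was not called (median -1.20), and their summed level went from between 1624 and 1638 CPM to between 712 and 729 CPM. Gfra2, Gfra3 and Prkcq had log2 fold changes of -3.14, -3.90 and -3.47, and Th rose by 2.02. Over all tested genes the shares were 40.8% lower and 39.2% higher. The difference between the 2 lists was not tested.

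After an axon is cut, sensory neurons are known to lower neurofilament mRNAs while growth and stress genes rise. Of 14 tested genes of that injury response, 6 were higher and 8 lower (median -0.30). Of the transcription factor genes, Atf3 rose from 329 ± 7.34 to 683 ± 27.5 CPM and Jun from 321 ± 7.73 to 573 ± 14.0 CPM, and Gadd45a rose by 2.23 on the log2 scale. The growth cone gene Gap43 fell from 237 ± 7.16 to 53.4 ± 3.15 CPM, and the neuropeptide gene Gal and the transcription factor gene Sox11 fell by 1.58 and 0.80. Over all tested genes 39.2% were higher and 40.8% lower, so a mix of directions does not set the list apart.

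**Figure D5:**
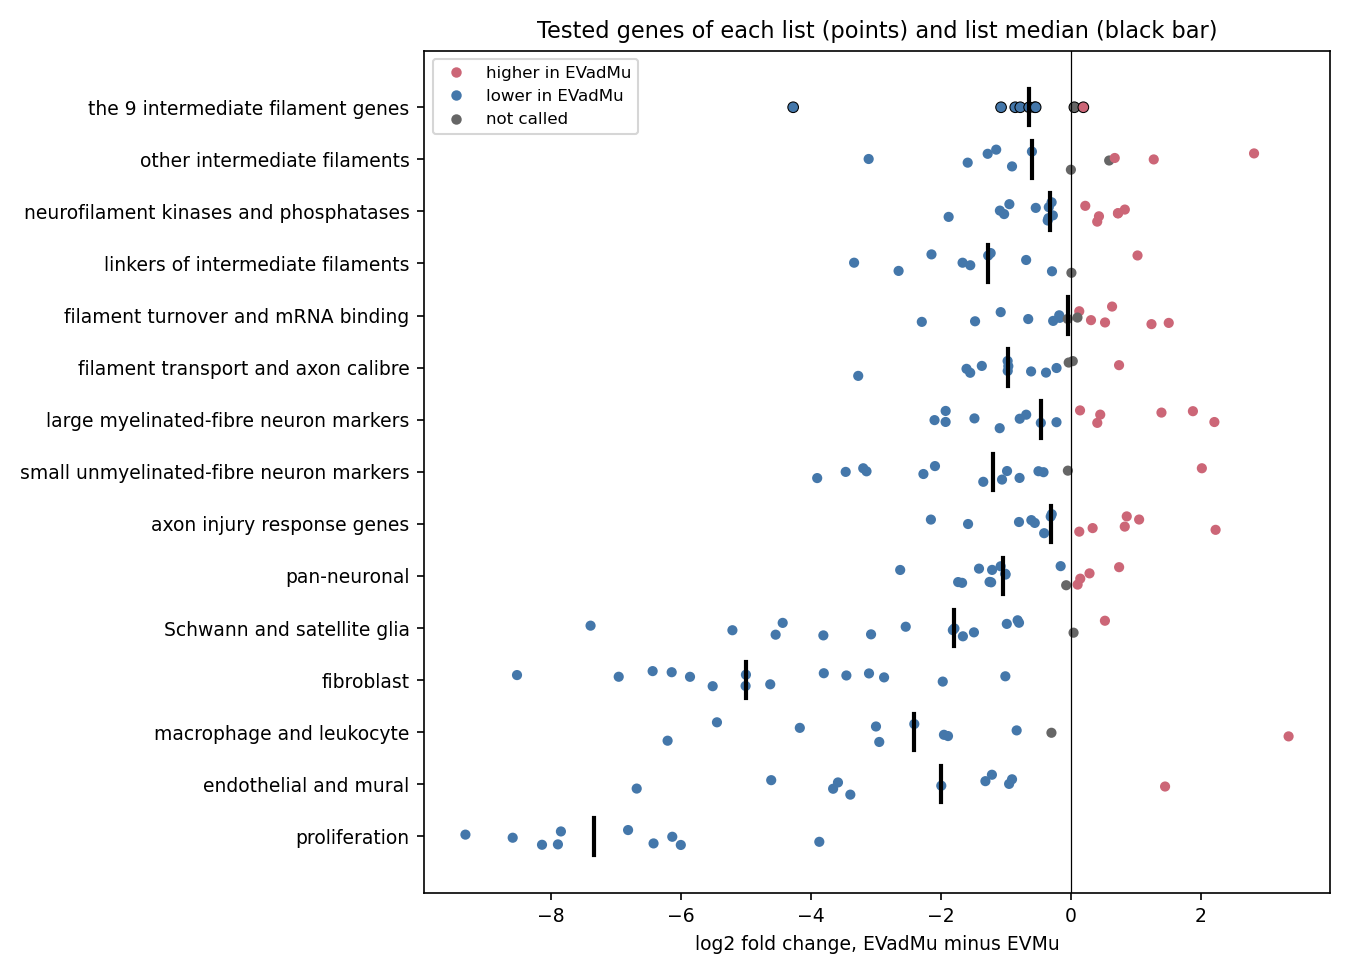
Log2 fold changes of the tested members of each list (points, red for higher in EVadMu, blue for lower, grey for not called) with the list median (black bar), and the 9 intermediate filament genes in the top row. The 9 genes have a median of -0.64, the linkers one of -1.27, the pan-neuronal markers one of -1.04 and the fibroblast markers one of -5.00.

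Other intermediate filament genes were measured from a list of 17, of which 11 were tested, 6 lower, 3 higher and 2 not called (median -0.60). Over all tested genes 80.0% were called, 40.8% lower and 39.2% higher, so the number called does not set this list apart. The nuclear lamin genes fell, Lmnb1 from 126 ± 1.31 to 14.6 ± 1.13 CPM, Lmnb2 from 47.7 ± 2.78 to 15.9 ± 2.13 CPM and Lmna from 629 ± 15.6 to 416 ± 9.56 CPM. The summed markers of fibroblasts and of proliferation were lower alongside, as given for Vim, and their part was not tested. Keratins, the filaments of epithelia, were low, and the 3 that were tested rose. Krt19 went from 2.01 ± 0.60 to 14.2 ± 0.60 CPM, Krt10 from 2.66 ± 0.15 to 6.46 ± 0.56 CPM and Krt80 from 4.92 ± 0.94 to 7.84 ± 0.78 CPM. The other 5 keratins of the list did not pass the filter on low counts.

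The genes whose pattern over the 6 libraries was nearest to a member were ranked by Euclidean distance of log2 CPM centred on each gene's mean, among 11576 genes. For Nefl these were Spred1, Arrb2 and Rfc1, with distances of 0.045 to 0.052. For Nefm they were Zfp523, Bcam and Rnf168 (0.036 to 0.054), and for Nefh Acadl, Kmt2b and Usp22 (0.041 to 0.065). Map4, a microtubule-associated protein gene, was the nearest to Prph at 0.049 and went from 993 to 638 CPM. Pacs2 was the nearest to Vim (0.020), Mta1 to Nes (0.037), Irgm2 to Gfap (0.30), Rab31 to Synm (0.064) and Jazf1 to Ina (0.12). With 2 groups, such likeness rests almost wholly on the size of the group difference.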

How the data were processed

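RNA was poly(A)-selected and sequenced from 6 libraries, per the labels' protocols. The deposited values are whole-number read counts per gene, not normalised by the authors. Per the submitters' processing notes the tools were CASAVA 1.8, HISAT2, featureCounts and SAMtools and the build was mm39. Their settings, the strand handling and the gene annotation used are not stated there. Groups came from the sample titles. The 9 genes, the gene lists and the tests were chosen with earlier results of these data known.

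The analysis used edgeR 4.0.16 in R 4.3.3: expression filter (minimum count 10, minimum total 15), TMM factors, quasi-likelihood F-test of EVadMu against EVMu, Benjamini-Hochberg adjustment over all 16993 tested genes, threshold 0.05. The biological coefficient of variation was 4.07%. SEs are the size of the log2 fold change over the square root of F. The pipeline was run on simulated data in which most genes were unchanged, whereas 80.0% of tested genes were called here. That run therefore does not check the scaling. Ratios used counts plus 0.5 per library with exact permutation over the 6 libraries. The variance between libraries within a group was 2.10 to 3.13 times that of counting (genes with at least 20 counts over a pair), so no pair was merged as a repeat deposit, which does not show separate cultures. Alternatives were other scalings and filters, the replicate number as a block, DESeq2 1.42.0, limma-voom (limma 3.58.1), leaving out each library, other pseudocounts and another marker summary. Named list genes were up to 3 called members with the smallest p in each direction; some genes that this rule picks are left out here. Genes named as not called, Kif5c and the keratins as a group were picked after values were seen. Promoter sequences are RefSeq's (GRCr8), and no coordinates of the count table's build were used.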

Additional observations from a re-analysis of the deposited data

How the results depend on the processing

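Under 8 other scalings, filters and tests, and with each of the 6 libraries left out, Nefl, Nefm, Ina, Prph, Vim, Nes, Gfap and Synm kept their direction and their call. Nefl ran from -0.97 to -0.81, Nefm from -0.89 to -0.75, Prph from -0.75 to -0.62 and Vim from -0.65 to -0.51 on the log2 scale, the lowest values of these 4 being those with no scaling factors. Nefh was called higher with RLE factors (0.077) and DESeq2 (0.077). It was at -0.056 with no scaling factors and from 0.028 to 0.083 with each library left out (adjusted p from 0.0277 to 0.507). With no scaling factors the median of all tested genes moved as well, from -0.02 to -0.13; the cause of the other moves was not tested. The triplet to pan-neuronal and Prph to pan-neuronal differences turned to 0.20 and 0.18 with the markers' mean log2 CPM; the cause was not tested. Genes called numbered 12693 to 14771 over the 8 alternatives, but the number tested differed as well. The stricter filter gave 12693 of 15166 tested genes and no filter 14771 of 35783. The reported fit gave 13597 of 16993. Same-numbered libraries did not deviate together (correlations of -0.05, 0.04 and -0.10 over 5000 genes), so the numbers were not taken as pairs; with the replicate block 13409 genes were called and no member's call changed. The exact permutation test used for the ratios cannot give a p under 0.1 with 3 libraries against 3, and Gfap rests on 6 to 13 counts per EVadMu library.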

Other observations

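Genes of filament turnover and of binding to neurofilament mRNA showed no common direction. Of 15, 7 were lower, 6 higher and 2 not called, beside 40.8% lower and 39.2% higher of all tested genes. The median log2 fold change was -0.05, beside -0.02 for all tested genes. The ubiquitin ligase gene Trim2, whose product binds the light subunit, fell from 249 ± 5.39 to 50.8 ± 2.45 CPM (SD, n = 3 per group; edgeR adjusted p = 1.91e-31). The protease gene Capn1, of the calpains that cut neurofilaments, fell by 1.08 on the log2 scale. The ubiquitin gene Ubb rose from 600.3 ± 47.0 to 1423 ± 21.8 CPM and the chaperone-linked ligase gene Stub1 from 59.1 ± 1.74 to 168 ± 2.80 CPM, and Hsp90aa1 rose by 0.53. The guanine nucleotide exchange factor gene Arhgef28, whose product binds light subunit mRNA, was at 0.10, and Trim32 at -0.05, and neither passed.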
